A study of Mus musculus with 11 samples.

Results

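Endothelial cells are held together by adherens and tight junctions, and the genes described here encode 10 proteins of these contacts. They were taken by symbol from the gene count table, each row being identified by its Entrez gene ID, and all 10 were found among 23463 named genes. They were *Cdh5*, *Ctnnb1* and *Ctnnd1* of the adherens junction, *Cldn5*, *Ocln* and *Tjp1* of the tight junction, and *F11r*, *Jam2*, *Jam3* and *Esam*, which encode junctional adhesion molecules of the immunoglobulin family. Of these, 9 passed the filter on low counts and were tested together with all 11948 genes that passed it. *Ocln* did not pass.

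In an adherens junction, VE-cadherin binds the same protein on the neighbouring cell, and catenins bound to its tail link it to the actin cytoskeleton and control how long it stays at the surface. In a tight junction, claudins seal the gap between cells and scaffold proteins of the zonula occludens family anchor them. Marrow vessels let blood cells pass through their wall, and the make-up of these contacts is one of the features that separates permeable from sealed endothelium.

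Wild-type BALB/c mice were burdened with 4T1.2 mammary tumour cells, a bone-metastasising mouse line of BALB/c origin expressing red fluorescent protein, and their bones were microdissected by this fluorescence into tumour-infiltrated marrow (met) and adjacent tumour-free marrow (non-met). Age-matched mice without tumours served as control. From each, endothelial cells with high CD31 and high endomucin (the type H immunophenotype) were sorted and their RNA was amplified by a low-input full-length protocol, giving 3 met, 6 non-met and 2 control libraries from 6 mouse pools by their labels. The 4 tumour-burdened pools held 1 to 4 mice each, the size of the control pools is not given, and the study's methods name more control pools than the labels do. A sample that aligned poorly was removed by the authors before the groups reached these sizes, and the methods do not say which it was. Pools 2, 3 and 4 were shared between met and non-met. Met 1, met 2 and met 3 came from pools 2, 3 and 4. Of the tumour-free libraries, non-met 2 and 6 were from pool 2, non-met 3 from pool 3, non-met 4 from pool 4 and non-met 1 and 5 from pool 1, which had no met library. Lesion outgrowth was otherwise studied after intracardiac injection of the tumour cells, but the route is not stated for the mice sequenced. Libraries of 1 pool come from the same animals, so *P* values over libraries treat as separate some samples that are not.

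Library totals ranged from 733342 reads in non-met 4 to 19539761 in control 1. The mitochondrial share of counts was 4.33% to 9.56% in met, 6.72% to 17.8% in non-met and 5.40% and 6.20% in control. The sorted phenotype was present in every library, with *Pecam1* (CD31) at 972 to 3163 CPM (reads per 1e6 scaled reads) and *Emcn* at 351 to 1361 CPM, and the 19 general endothelial markers summed to 10069 to 19179 CPM. Other cell types were also detected. The 14 granulocyte markers summed to 397 to 5323 CPM in non-met, 54.3 to 204 CPM in met and 86.5 to 359 CPM in control, with 1, 6 and 5 of them at 0 throughout the group, among them *Elane* and *Mpo* in met. The 15 stromal and mural markers summed to 4159 and 10975 CPM in the controls, against 1310 to 4233 CPM in non-met and 548 to 3237 CPM in met, where *Dcn* and *Sp7* were at 0. The 8 leukocyte markers summed to 402 to 745 CPM in non-met, 315 to 687 CPM in met and 171 to 280 CPM in control, with *Ptprc* at 0 throughout non-met, *Coro1a*, *Rac2* and *Cd53* throughout met and *Cd52* and *Coro1a* throughout control. The 10 megakaryocyte and platelet markers summed to 83.3 to 124 CPM in met and at most 59.5 CPM elsewhere, and 5, 5 and 9 of them were at 0 throughout met, non-met and control, *Gp9* in all 3 groups. The summed keratins *Krt8*, *Krt18* and *Krt19* were at 0.782 to 4.94 CPM in both controls, non-met 1 and non-met 2, and at 9.75 to 83.5 CPM in the other 7 libraries, so that both controls lay in the lower set, all met libraries in the higher one and non-met in both. In bulk libraries, fewer cells of a type and less RNA per cell cannot be told apart.

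Promoter windows of 6 of the 10 genes were held in the RefSeq table used (GRCm38.p6, 250 bases before to 50 after a transcription start, 9 windows for these genes). *Cdh5*, *Esam*, *Jam2* and *Jam3* had no entry. They were searched for letters bound by ETS factors, which act on many endothelial genes, and for an E-box bound by repressors of the Snail family. Windows are shown for the gene with the highest level per length (*Cldn5*), the gene at the floor of detection (*Ocln*) and the scaffold gene that was higher in every met library than in the non-met libraries of its own pool (*Tjp1*). Capitals mark the E-box CACCTG on either strand (CAGGTG in reverse) in the *Ocln* window, and the ETS sequences CGGAAG or AGGAAG on either strand (CTTCCG or CTTCCT in reverse) in the *Tjp1* window. The *Cldn5* window, chr16:18776597-18776896 on the plus strand, held neither.
Cldn5: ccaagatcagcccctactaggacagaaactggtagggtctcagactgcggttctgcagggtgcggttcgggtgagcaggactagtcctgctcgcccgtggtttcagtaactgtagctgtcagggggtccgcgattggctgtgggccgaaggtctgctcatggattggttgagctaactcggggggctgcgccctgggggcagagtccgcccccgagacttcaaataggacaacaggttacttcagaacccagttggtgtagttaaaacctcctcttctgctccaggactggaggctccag
The *Ocln* window, chr13:100552449-100552748 on the minus strand, held 2 matches of the E-box.
Ocln: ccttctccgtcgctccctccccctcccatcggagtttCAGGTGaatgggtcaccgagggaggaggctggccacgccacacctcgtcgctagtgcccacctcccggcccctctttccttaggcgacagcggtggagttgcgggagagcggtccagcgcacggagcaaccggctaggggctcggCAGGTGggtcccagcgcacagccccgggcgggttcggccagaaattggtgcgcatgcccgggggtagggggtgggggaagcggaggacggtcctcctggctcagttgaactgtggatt
The *Tjp1* window, chr7:65371195-65371494 on the minus strand, held 1 match of the ETS sequences.
Tjp1: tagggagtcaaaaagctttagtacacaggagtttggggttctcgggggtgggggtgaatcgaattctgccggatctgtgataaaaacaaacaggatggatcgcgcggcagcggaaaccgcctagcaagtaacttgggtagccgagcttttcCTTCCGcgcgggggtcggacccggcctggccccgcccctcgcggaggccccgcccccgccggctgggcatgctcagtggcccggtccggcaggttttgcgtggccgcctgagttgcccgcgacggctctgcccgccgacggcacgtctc
The E-box letters were found in 3 of the 9 windows, 2 of *Ocln*, which overlap and share 1 match, and 1 of *F11r*, against 20.2% of 32851 windows in the table. The ETS letters were found in 3 of the 9, 2 of *Ctnnd1* and 1 of *Tjp1*, against 46.5% of the table. These matches describe the letters in the windows only.

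Levels between genes were compared as RPKM (CPM per kilobase of exon). The tight junction claudin and the adhesion molecule ESAM stood at the top, followed by VE-cadherin. The median RPKM over the 11 libraries was 690 for *Cldn5*, 468 for *Esam*, 398 for *Cdh5* and 304 for *Ctnnb1*. It was 161 for *F11r*, 79.8 for *Tjp1*, 65.0 for *Ctnnd1*, 41.6 for *Jam2*, 9.38 for *Jam3* and 0.036 for *Ocln*. No neighbouring pair in this order held in every library. *Cldn5* exceeded *Esam* in 9 of 11 libraries, *Esam* exceeded *Cdh5* in 8, *Tjp1* exceeded *Ctnnd1* in 8 and *Jam3* exceeded *Ocln* in 7, whereas *Ctnnb1* exceeded *F11r*, and *F11r* exceeded *Tjp1*, in 10 of 11. Ranges overlapped between all neighbours. *Cldn5* spanned 275 to 883 RPKM and *Esam* 273 to 642 RPKM.

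**Figure D1:**
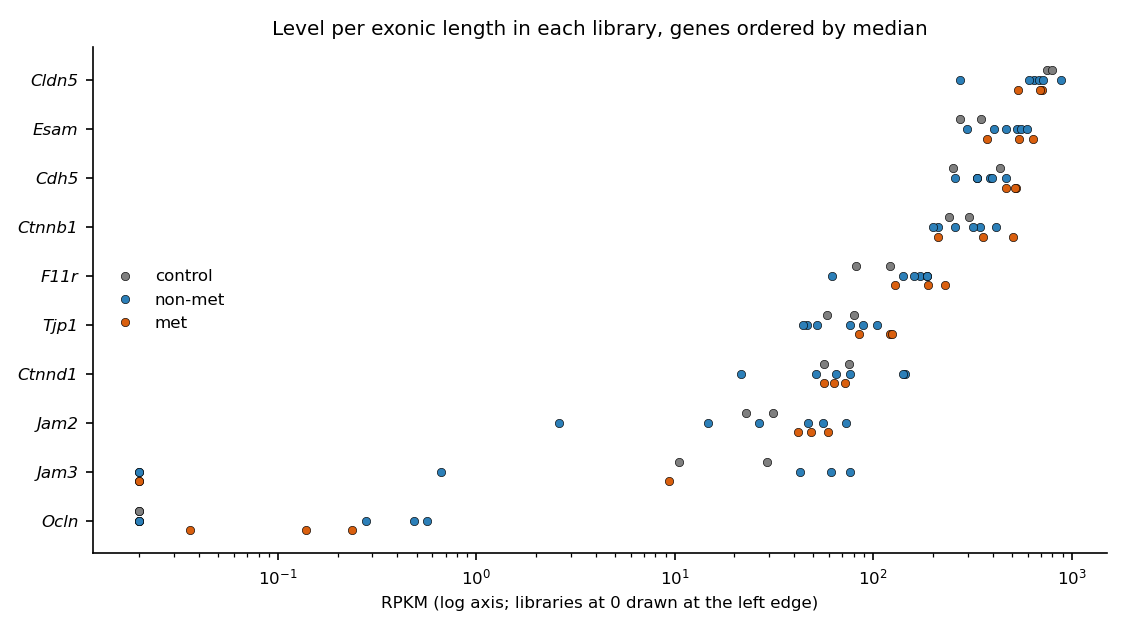
RPKM of the 10 junction genes on a log axis, 1 point for each library, coloured by group, with genes ordered by their median. *Cldn5*, *Esam*, *Cdh5* and *Ctnnb1* lie between 201 and 883 RPKM in every library, while 4 libraries have *Jam3* at 0 and 5 have *Ocln* at 0, drawn at the left edge.

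Among all tested genes these were abundant. On the log2 CPM scale, 91.3% to 99.7% of tested genes had a lower mean than each of the tested junction genes other than *Jam3*, for which the share was 44.1%. The spread between the 6 non-met libraries differed widely between the genes. The SD of log2 CPM was 0.29 for *Cdh5*, 0.37 for *Esam*, 0.41 for *Ctnnb1*, 0.53 for *Tjp1*, 0.58 for *Cldn5*, 0.60 for *F11r* and 1.02 for *Ctnnd1*. It was 1.76 for *Jam2* and 4.25 for *Jam3*. Only 2.25% of tested genes varied less between non-met libraries than *Cdh5*, whereas 99.3% varied less than *Jam3*.

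The first comparison asked how junction transcripts differ between endothelium inside a lesion and endothelium of tumour-free marrow in tumour-burdened mice, where 2 of the 6 non-met libraries came from a pool without a met library. VE-cadherin was higher in the met libraries by the weighted fit, and no other junction gene passed. With voomLmFit and Benjamini-Hochberg adjustment over all tested genes, 1 of the 9 genes (*Cdh5*) passed an adjusted *P* of 0.05, against 0.427% of all tested genes (51 of 11948, 34 higher and 17 lower in met). *Cdh5* was also the single junction gene whose met and non-met libraries did not overlap, which held for 1.98% of all tested genes. The unweighted difference was above 0 for 7 of the 9, beside 56.3% of all tested genes. The median of the 9 was 0.26 on the log2 scale, and the median over all tested genes was also 0.26. By edgeR's quasi-likelihood test and DESeq2, the median over all tested genes was -0.10 and -0.26.

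Against control, again *Cdh5* alone passed in met, 1 of 9 beside 1.2% of all tested genes (143, 82 higher and 61 lower). For 7 of the 9 genes the 3 met and 2 control libraries did not overlap, with *Cdh5*, *Esam*, *Jam2*, *F11r* and *Tjp1* higher in met and *Cldn5* and *Jam3* lower, against 20.7% of all tested genes. The median unweighted difference of the 9 was 0.61, and that of all tested genes was -0.35. The median over all tested genes depended on the tool, being 0.022 by edgeR's quasi-likelihood test and 0 by DESeq2. In non-met against control no junction gene passed, beside 0.636% of all tested genes (76, 22 higher and 54 lower), and none was without overlap, beside 6.29%. By DESeq2, limma-trend and edgeR's quasi-likelihood test, 0 of the 9 genes passed in any of the 3 comparisons. Of all tested genes, in the same order of comparisons, 2.71%, 1.91% and 2.23% passed with DESeq2, 0.0167%, 0.0753% and 0.067% with limma-trend and 0.134%, 0.0837% and 0.117% with the quasi-likelihood test. Before adjustment, a *P* under 0.05 was reached by *Cdh5* alone in met against non-met, by 5 genes (*Cdh5*, *Esam*, *F11r*, *Jam3* and *Ctnnb1*) in met against control and by *Cdh5* in non-met against control with voomLmFit, by *Cdh5* in both comparisons of met with limma-trend, and by none with DESeq2 or the quasi-likelihood test. Over all tested genes the shares under 0.05 were 7.24%, 14.1% and 17% in the 3 comparisons with voomLmFit, 4.7%, 4.96% and 4.46% with limma-trend, 9.47%, 6.32% and 6.44% with DESeq2 and 8.38%, 4.61% and 4.29% with the quasi-likelihood test. The 3 comparisons share libraries and are not separate evidence.

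The weighted fit needs to be read with the weights it used. For abundant genes its precision weights were very unequal, so that 1 library can carry most of a group's mean. For *Cdh5*, control 1 carried 99.98% of the weight of its group, met 3 carried 95.01% and non-met 2 carried 62.3%. For *Ctnnb1* these shares were 99.4%, 81.2% and 52.5%, for the same libraries. Where 1 library carries a group, the SE of the weighted fit does not measure the spread between the libraries of that group. The unweighted differences, with the standard error of limma-trend, are therefore given as well.

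**Figure D2:**
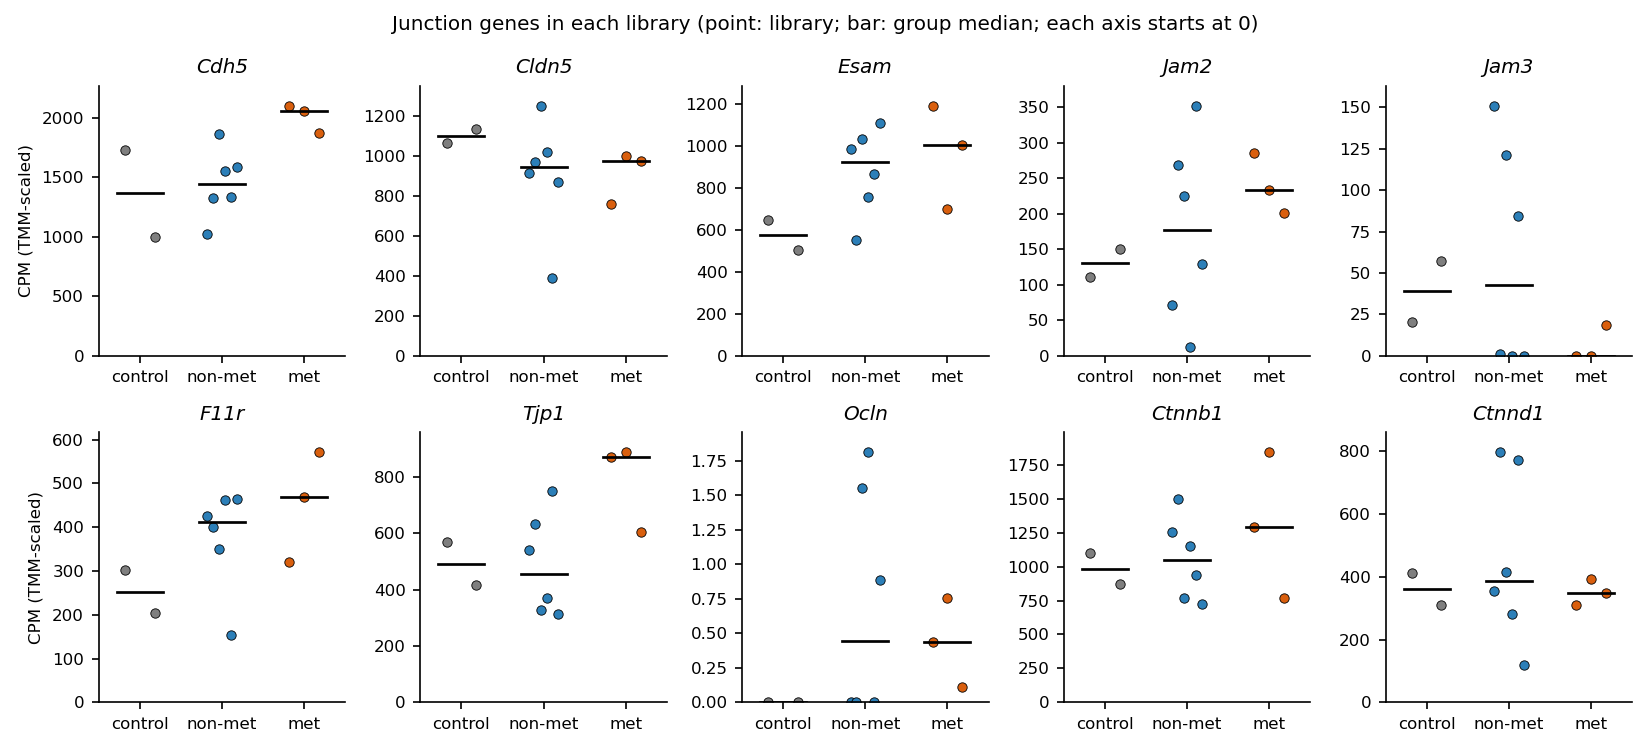
CPM of each junction gene, 1 point for each library and a bar at the group median, with every axis starting at 0. The 3 met libraries lie above all others for *Cdh5* (1871 to 2099 CPM), whereas *Jam3* is split between libraries at or near 0 and libraries of up to 151 CPM within a group.

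VE-cadherin, encoded by *Cdh5* (chr8:104101613-104144504, overlapping the predicted gene *Gm29682*), is the adhesive receptor of endothelial adherens junctions. It was at 2099, 2059 and 1871 CPM in met 1 to 3. In non-met it ranged from 1026 to 1863 CPM with a median of 1441 CPM, and the controls were at 1728 and 1001 CPM. The met values exceeded those of every other library, with met 3 close to the highest non-met library, non-met 3, and the non-met and control ranges overlapped. On the log2 CPM scale the means were 10.97 ± 0.09 (SD, n = 3) in met, 10.48 ± 0.29 (SD, n = 6) in non-met and 10.36 ± 0.56 (SD, n = 2) in control. The weighted log2 fold change of met against non-met was 0.56 ± 0.11 (SE, voomLmFit adjusted *P* = 0.0157) and the unweighted one 0.50 ± 0.22 (SE). The exact two-sided permutation *P* was 0.0238 where 0.0119 is the smallest that 84 splits allow, and adjusted over all genes it was 1. Adjusted *P* was 0.911 by limma-trend, 0.741 by edgeR's quasi-likelihood test and 0.961 by DESeq2. With mouse pool as a fixed block the log2 fold change was 0.33 ± 0.23 (SE, voomLmFit adjusted *P* = 1), and with a term for the 2 keratin sets it was 0.14, also not past the threshold.

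Within pools *Cdh5* was higher in the met library in every case. The met library exceeded the mean of the non-met libraries of its pool by 0.53, 0.14 and 0.27 in pools 2, 3 and 4 on the log2 scale, and exceeded each of them singly. The same pattern was shown by 7.6% of all tested genes. Against control, the weighted difference of met was 0.12 ± 0.02 (SE, voomLmFit adjusted *P* = 0.0042), while the unweighted one was 0.61 ± 0.28 (SE, limma-trend adjusted *P* = 0.977). Left without control 1, which carried nearly all of the control weight, the weighted value was 0.96. The exact permutation *P* was 0.1, the smallest that 10 splits allow. Non-met against control gave -0.43 ± 0.11 (SE, voomLmFit adjusted *P* = 0.0628) with weights and 0.11 ± 0.25 (SE) without, so that the sign itself differed between the fits. The sort markers *Pecam1* and *Emcn* summed to 2972 to 4488 CPM in met, 1716 to 3789 CPM in non-met and 1481 to 1942 CPM in control. The medians of this sum were 3810 CPM in met, 2563 CPM in non-met and 1712 CPM in control. Met 1, the highest in *Cdh5*, had the lowest sum of the met libraries and an *Emcn* of 674 CPM, below that of control 1 and of 4 non-met libraries. The 19 endothelial markers summed to 14227 to 19179 CPM in met, 10069 to 17823 CPM in non-met and 10099 and 15212 CPM in control, with none at 0 throughout a group. The granulocyte markers ran the other way between met and non-met. The parts of cell composition and of the mitochondrial share in the *Cdh5* difference were not tested.

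The met against non-met call of *Cdh5* was lost when any 1 of non-met 1, non-met 2, non-met 5, met 1 or met 3 was left out, with weighted log2 fold changes between 0.44 and 0.69 over all libraries left out in turn. The met against control call was lost without non-met 5 or any 1 of the 3 met libraries.

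β-catenin, encoded by *Ctnnb1* (chr9:120933400-120960507), binds the VE-cadherin tail and also acts in the nucleus in Wnt signalling. It was at 1294, 1839 and 770 CPM in met, at 728 to 1500 CPM in non-met with a median of 1044 CPM, and at 1101 and 869 CPM in control. The groups overlapped in every comparison, and the met libraries alone spanned nearly the whole range. The weighted log2 fold change of met against non-met was -0.49 ± 0.27 (SE, voomLmFit adjusted *P* = 0.739) and the unweighted one 0.26 ± 0.29 (SE). The met library with the highest weight, met 3, was the lowest of its group, and without it the weighted value was 0.45. No direction is therefore given for *Ctnnb1*. Within pools it was higher in met by 0.31 and 1.26 in pools 2 and 3 and lower by 0.58 in pool 4 (a difference of -0.58).

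p120-catenin, encoded by *Ctnnd1* (chr2:84587096-84658977), binds the cadherin near the membrane and limits its endocytosis. It was at 311, 393 and 348 CPM in met and at 413 and 310 CPM in control. In non-met it ranged from 118 CPM in non-met 6 to 795 CPM in non-met 2, with a median of 386 CPM, so that the other groups fell inside the non-met range. The unweighted difference of met against non-met was -0.12 ± 0.53 (SE, limma-trend adjusted *P* = 0.977).

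Claudin-5, encoded by *Cldn5* (chr16:18776847-18778262), is the main claudin of endothelial tight junctions. It was at 762, 1002 and 977 CPM in met, at 390 to 1250 CPM in non-met with a median of 943 CPM, and at 1064 and 1132 CPM in control. Both controls lay above all met libraries but inside the non-met range. The log2 fold change of met against non-met was 0.04 ± 0.15 (SE, voomLmFit adjusted *P* = 0.975) with weights and 0.09 ± 0.31 (SE) without, and against control it was -0.13 ± 0.09 (SE, voomLmFit adjusted *P* = 0.579) and -0.28 ± 0.40 (SE). The non-met range was set by 1 library, non-met 5, which was at 390 CPM where the next was at 868 CPM. Within pools *Cldn5* ran opposite to *Cdh5*. The met library was below each non-met library of its pool in all 3 pools, by log2 differences of -0.27, -0.32 and -0.06, a pattern shown by 5.67% of all tested genes.

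The ratio of *Cdh5* to *Cldn5* within a library does not depend on scaling between libraries. Its log2 was 1.46, 1.04 and 0.94 in met, ranged from 0.16 to 1.77 in non-met and was 0.70 and -0.18 in control. All met libraries lay above both controls, and the highest ratio of all was in non-met 5. The log2 means were 1.15 ± 0.28 (SD, n = 3), 0.74 ± 0.56 (SD, n = 6) and 0.26 ± 0.62 (SD, n = 2). Met exceeded non-met by 0.41 (exact two-sided permutation *P* = 0.274) and control by 0.89 (exact *P* = 0.1, the smallest possible), and non-met exceeded control by 0.48 (exact *P* = 0.357). None of the 3 differences passed 0.05 before adjustment, in tests that leave the mouse pools out of account. Within pools the log2 ratio was higher in met, at 1.46 against 0.45 and 0.87 in pool 2, 1.04 against 0.58 in pool 3 and 0.94 against 0.60 in pool 4, as follows from the opposite within-pool differences of the 2 genes. Non-met 5 came from pool 1, which had no met library.

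ZO-1, encoded by *Tjp1* (chr7:65296165-65527850), is the scaffold that ties claudins and junctional adhesion molecules to actin, and its promoter window is among those shown. It was at 868, 885 and 603 CPM in met and at 568 and 415 CPM in control. In non-met it ranged from 315 to 748 CPM with a median of 456 CPM, and non-met 2 and 5, at 631 and 748 CPM, overlapped with met 3. The unweighted difference of met against non-met was 0.74 ± 0.39 (SE, limma-trend adjusted *P* = 0.911), and the exact permutation *P* was 0.0595. The weighted value was 0.40 ± 0.28 (SE, voomLmFit adjusted *P* = 0.78). Within pools met was above each non-met library of its pool, by mean log2 differences of 0.96, 1.43 and 0.70. With pool as a fixed block the log2 fold change was 0.99 ± 0.51 (SE, voomLmFit adjusted *P* = 1). These differences did not pass the test.

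**Figure D3:**
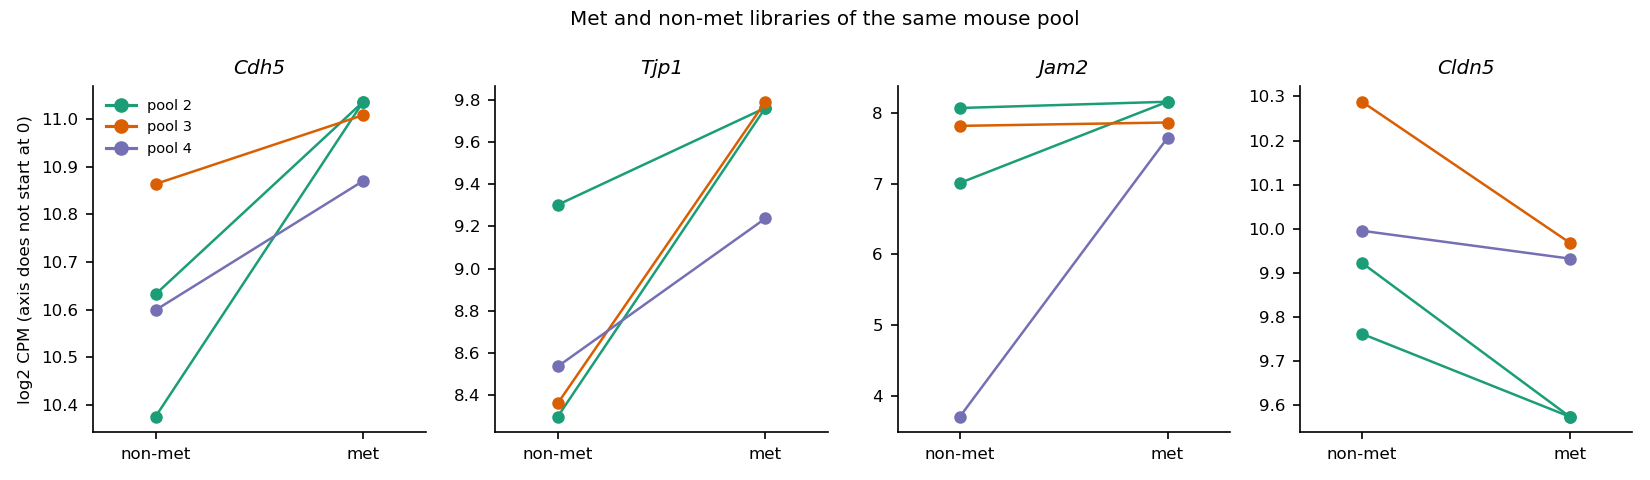
Log2 CPM of *Cdh5*, *Tjp1*, *Jam2* and *Cldn5* in the non-met (left) and met (right) libraries of mouse pools 2, 3 and 4, with a line for each pair of libraries (pool 2 has 2 non-met libraries). All lines go up for *Cdh5*, *Tjp1* and *Jam2* and all go down for *Cldn5*, and the axes do not start at 0. These are the tested junction genes with 1 direction in all 3 pools, and *Esam*, *Jam3*, *F11r*, *Ctnnb1* and *Ctnnd1* went both ways. Of all tested genes, 7.6% went up and 5.67% went down in this way.

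Occludin, encoded by *Ocln* (chr13:100496504-100552718), is a membrane-spanning protein of tight junctions. It had 13 reads in all 11 libraries together. There were 0 reads in both controls and in non-met 1, 2 and 5, 5 reads in non-met 3 and 1 in non-met 4 and 6, and 1, 4 and 1 reads in met 1 to 3. Only non-met 3 and met 2 exceeded 3 reads, the number taken here as the floor (0.147 to 5.43 CPM, depending on the library). *Ocln* was thus at or near the floor where *Cldn5* had 564 to 21761 reads, and no fold or test is given for it. Differences of *Ocln* between groups were not detectable at this depth, and intervals from such counts would cover counting error only, since amplified reads are not independent molecules.

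JAM-A, encoded by *F11r* (chr1:171437561-171464593), is a junctional adhesion molecule of endothelial and epithelial contacts that also binds a leukocyte integrin. It was at 320, 469 and 571 CPM in met, at 154 to 464 CPM in non-met with a median of 413 CPM, and at 302 and 203 CPM in control. The met libraries lay above both controls and overlapped with non-met, of which non-met 5 was the lowest by far. The log2 fold change of met against control was 0.92 ± 0.32 (SE, voomLmFit adjusted *P* = 0.147) with weights and 0.83 ± 0.63 (SE) without. Met against non-met gave 0.43 ± 0.32 (SE, voomLmFit adjusted *P* = 0.781) and 0.32 ± 0.49 (SE).

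JAM-B and JAM-C, encoded by *Jam2* (chr16:84774123-84826380) and *Jam3* (chr9:27097384-27155421), bind each other across cell contacts. Each overlaps a predicted gene, *Gm46557* and *LOC115487155*. *Jam2* was at 286, 233 and 201 CPM in met, at 12.7 to 352 CPM in non-met with a median of 177 CPM, and at 111 and 151 CPM in control. The lowest value was in non-met 4, the library with the fewest reads, where 7 reads were counted. Within pools met was above each non-met library of its pool, by mean log2 differences of 0.62, 0.05 and 3.95, the last set by non-met 4. The unweighted difference of met against non-met was 1.02 ± 0.88 (SE, limma-trend adjusted *P* = 0.911) and against control 0.88 ± 1.13 (SE).

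*Jam3* was on or off from library to library. It had 0 reads in met 1, met 2, non-met 4 and non-met 6 and 9 reads in non-met 2, but 161 reads in met 3, 159 to 836 reads in non-met 1, 3 and 5, and 423 and 324 reads in the controls. Both states occurred within met and within non-met, and met 2 had 0 reads at a depth above that of control 2. On the CPM scale it was at 0, 0 and 18.5 in met, at 0 to 151 in non-met with a median of 42.8, and at 20.7 and 57.3 in control. All met libraries were below both controls, met 3 narrowly. The unweighted log2 difference of met against control was -4.70 ± 3.17 (SE, limma-trend adjusted *P* = 1) and that of met against non-met -2.63 ± 2.45 (SE). These values depend on the prior count given to libraries at 0 and are not bounds.

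ESAM, encoded by *Esam* (chr9:37528089-37538319), is an endothelial adhesion molecule of tight junctions that is also found on platelets. It was at 1189, 698 and 1005 CPM in met, at 550 to 1107 CPM in non-met with a median of 925 CPM, and at 646 and 506 CPM in control. The met libraries lay above both controls, and 5 of the 6 non-met libraries did so too. The log2 fold change of met against control was 0.55 ± 0.15 (SE, voomLmFit adjusted *P* = 0.0625) with weights and 0.72 ± 0.39 (SE, limma-trend adjusted *P* = 1) without. Of non-met against control it was 0.21 ± 0.17 and 0.59 ± 0.35 (SE), and of met against non-met 0.34 ± 0.19 (SE, voomLmFit adjusted *P* = 0.739) and 0.13 ± 0.30 (SE). The platelet and megakaryocyte markers were above their non-met and control ranges in met, as given above, and their part in the *Esam* values was not tested.

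**Figure D4:**
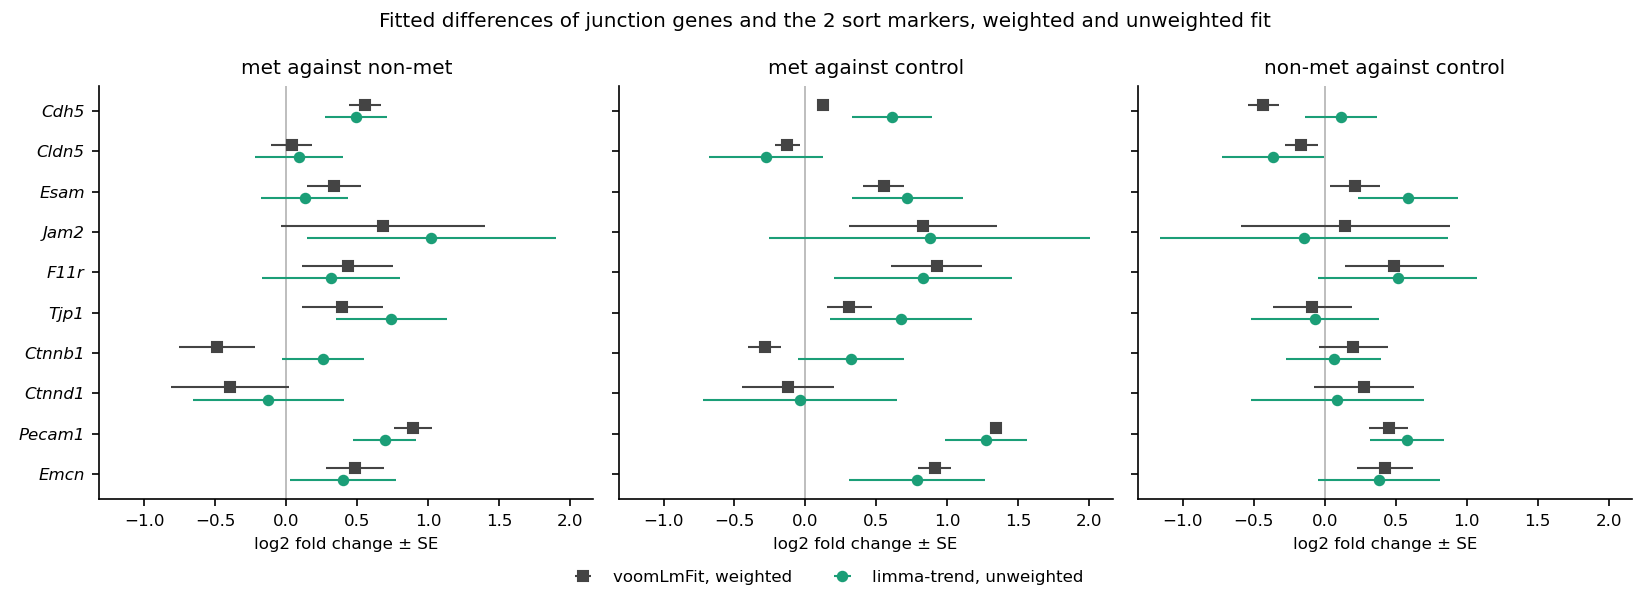
Log2 fold change ± SE of 8 junction genes and the sort markers *Pecam1* and *Emcn* in the 3 comparisons, by the weighted fit (squares) and the unweighted fit (circles). The fits lie on opposite sides of 0 for *Ctnnb1* in both comparisons of met and for *Cdh5* and *Jam2* in non-met against control; *Jam3*, with weighted values down to -6.07, is left out.

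Genes whose pattern was most like that of *Cdh5* were sought by Pearson's correlation of log2 CPM over the 11 libraries among 11939 other tested genes. The 5 highest were *Nt5dc2* (r = 0.951), *S100a4* (r = 0.920), *Sema4c* (r = 0.919), *Sephs1* (r = 0.918) and *Polr2j* (r = 0.908). These were far less abundant, with median CPM of 2.67, 4.25, 56.0, 14.2 and 19.7 in that order, and all but *Sema4c* had 0 reads in at least 1 library. The points share library, depth and group, and the values describe these libraries only.

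Other genes of the same junctions were taken from 5 lists. Of 17 tested adherens junction partners (18 listed), none passed in met against non-met by voomLmFit (4 before adjustment, beside 7.24% of all tested genes) or by the other tools, while *Cdh2* passed as lower in met against control and in non-met against control, beside 1.2% and 0.636% of all tested genes. The median unweighted log2 difference of met against non-met was 0.57 for this list, beside 0.26 for all tested genes. Of the 17 genes, 14 were above 0, beside 56.3% of all tested genes, and 0 were without overlap, beside 1.98%. Their summed level was 3672 to 4631 CPM in met, 2442 to 3932 CPM in non-met and 1845 and 2928 CPM in control, and the met libraries lay above both controls. Of this list *Ctnna1* (α-catenin, which links β-catenin to actin) was at 416, 779 and 912 CPM in order of size in met, at 231 to 666 CPM in non-met and at 354 and 448 CPM in control, and *Jup* (plakoglobin) at 194 to 754 CPM in met, 203 to 987 CPM in non-met and 312 and 483 CPM in control. Neither passed, and *Ctnna1* was among the 4 genes under 0.05 before adjustment in met against non-met.

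N-cadherin, encoded by *Cdh2*, is a cadherin of endothelium and of mural and mesenchymal cells. It had 611 and 338 reads in the controls (29.9 and 59.8 CPM) and 476 reads in non-met 2 (69.1 CPM), and 0 reads in the other 5 non-met and all 3 met libraries. It thus passed the filter on low counts only through the libraries where it was high, mainly the controls, and its calls against control describe that pattern and are no further evidence of it. The mean control level was 60.2-fold the mean level that a floor of 3 reads in each library gives for met. This covers counting only and is not a bound on the difference, since amplified reads are not independent molecules. The adjusted *P* by voomLmFit was 0.0305 in met against control and 0.0485 in non-met against control, whereas by limma-trend it was 0.63 and 0.687. These calls held in 10 and 5 of 21 other settings each, of which DESeq2 gave no adjusted *P*, and the first was lost without control 1, non-met 2, non-met 5 or any 1 met library and the second without any 1 control or non-met library or met 1. The stromal and mural markers summed to more in both controls than in any met library, but control 1, at 4159 CPM, was below non-met 5, at 4233 CPM. Non-met 2, the highest in *Cdh2*, summed to 1568 CPM. Of the 15 markers, 1 (*Bglap*) was at 0 throughout the controls and 3 (*Dcn*, *Bglap*, *Sp7*) were at 0 throughout met. Their part in the *Cdh2* difference was not tested.

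Of 30 tight junction partners 18 were tested, and none passed in any comparison by voomLmFit, with 0, 3 and 7 at an unadjusted *P* under 0.05, where 7.24%, 14.1% and 17% of all tested genes were. Their median unweighted log2 difference was 0.11 in met against non-met, -1.32 in met against control and -2.09 in non-met against control, beside 0.26, -0.35 and -0.79 for all tested genes. In the same order, the medians over all tested genes were -0.10, 0.022 and 0.14 by the quasi-likelihood test and -0.26, 0 and 0.22 by DESeq2. The most abundant per length were *Amotl1*, of the angiomotin family, at 187 to 489 CPM in met, 307 to 605 CPM in non-met and 208 and 290 CPM in control, and *Ybx3*, a ZO-1-binding nucleic acid binding protein, at 66.7 to 587 CPM in met, 75.5 to 295 CPM in non-met and 101 and 235 CPM in control. The summed level of the list, 1254 to 1575 CPM in met, lay below that of the controls (1713 and 2041 CPM) and within that of non-met (1196 to 1842 CPM). Of 7 connexins 4 were tested, and none passed by voomLmFit or the other tools, nor before adjustment. *Gja1* (connexin 43) was at 144 to 441 CPM in met, 130 to 485 CPM in non-met and 149 and 195 CPM in control, and *Gja4* (connexin 37) at 0 to 80.9, 7.24 to 106 and 12.6 to 15.2 CPM.

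The gene of this list that other tools did call was *Cxadr*, and it is named here after its values were seen. It encodes CAR, a tight junction adhesion molecule related to the junctional adhesion molecules. It was at 315 and 386 CPM in control, at 1.87 to 289 CPM in non-met, and at 0.881, 1.14 and 6.42 CPM in met, where 2, 6 and 56 reads were counted. Both controls lay above all other libraries, and non-met 3 and 6, at 1.87 and 8.88 CPM, were inside or just above the met range. The log2 fold change of met against control was -7.44 ± 2.03 (SE, voomLmFit adjusted *P* = 0.0704) with weights and -7.23 ± 2.12 (SE, limma-trend adjusted *P* = 0.437) without, and the adjusted *P* was 0.0192 by the quasi-likelihood test and 0.00012 by DESeq2, which called 0.0837% and 1.91% of all tested genes. In met against non-met it was -4.29 ± 2.22 (SE, voomLmFit adjusted *P* = 0.731) and -4.16 ± 1.64 (SE, limma-trend adjusted *P* = 0.911), with an adjusted *P* of 7.16e-05 by DESeq2, which called 2.71% of all tested genes, and 0.0996 by the quasi-likelihood test. Non-met against control gave -3.15 ± 0.93 (SE, voomLmFit adjusted *P* = 0.0972) and -3.07 ± 1.90 (SE, limma-trend adjusted *P* = 0.936), with an adjusted *P* of 1 by DESeq2 and 0.964 by the quasi-likelihood test. The stromal and mural markers were higher in both controls than in met and overlapped between control and non-met, as given for *Cdh2*. Their part was not tested.

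Of 9 other adhesion genes of endothelial contacts, all tested, 1 rose in met by the weighted fit against non-met and against control, beside 0.427% and 1.2% of all tested genes. *Mcam*, which encodes the junctional immunoglobulin protein CD146, was at 1180, 1011 and 1588 CPM in met, at 435 to 1132 CPM in non-met with a median of 636 CPM, and at 303 and 134 CPM in control. The met libraries overlapped with non-met by 1 library, non-met 3, and both lay above the controls. The log2 fold change against non-met was 1.10 ± 0.25 (SE, voomLmFit adjusted *P* = 0.0429) with weights and 0.91 ± 0.37 (SE, limma-trend adjusted *P* = 0.911) without. It did not pass by edgeR's quasi-likelihood test (adjusted *P* = 0.564) or DESeq2 (adjusted *P* = 0.456), and with a fixed block for mouse pool it was 0.30 ± 0.46 (SE, voomLmFit adjusted *P* = 1). The call held in 8 of 22 other settings and was lost without any 1 of the non-met libraries other than non-met 3, or without met 1 or met 3. Against control the log2 fold change was 2.65 ± 0.54 (SE, voomLmFit adjusted *P* = 0.00938) with weights and 2.62 ± 0.48 (SE, limma-trend adjusted *P* = 0.0142) without, and it also passed by edgeR's quasi-likelihood test (adjusted *P* = 0.0357) and DESeq2 (adjusted *P* = 6.16e-05). Of 21 other settings, this call was lost without control 1 (adjusted *P* = 0.286, voomLmFit) and with the keratin term. *Mcam* was above both controls in every non-met library too. Non-met against control gave a log2 fold change of 1.56 ± 0.59 (SE, voomLmFit adjusted *P* = 0.183) with weights and 1.70 ± 0.43 (SE, limma-trend adjusted *P* = 0.157) without, and of 21 other settings it passed in 2, DESeq2 (adjusted *P* = 0.00282) and the weighted fit without control 2. The summed level of the 9 genes was 2417 to 2705 CPM in met, 1093 to 2036 CPM in non-met and 871 and 1169 CPM in control, so that met did not overlap with either. Of this sum *Mcam* alone made 1011 to 1588 CPM in met. Singly, 0 of the 9 genes were without overlap between met and non-met, beside 1.98% of all tested genes. Between met and control 4 were, beside 20.7%. *Icam2*, an endothelial ligand of leukocyte integrins, was at 127 to 311 CPM in met, 58.8 to 260.1 CPM in non-met and 188 and 262 CPM in control.

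Among 32 junction regulators, all tested, 1 passed in met against non-met and 3 in met against control by the weighted fit, beside 0.427% and 1.2% of all tested genes, and none by the other tools. *Ptprb* encodes VE-PTP, the phosphatase that keeps VE-cadherin dephosphorylated. It was at 1701, 1721 and 2477 CPM in met, at 834 to 2184 CPM in non-met with a median of 1056 CPM, and at 1199 and 969 CPM in control. The met libraries lay above both controls and above all non-met libraries but non-met 3. The log2 fold change was 1.14 ± 0.17 (SE, voomLmFit adjusted *P* = 0.000488) against non-met, and the unweighted one 0.70 ± 0.26 (SE, limma-trend adjusted *P* = 0.911). Against control it was 1.01 ± 0.04 (SE, voomLmFit adjusted *P* = 5.09e-16) and 0.84 ± 0.34 (SE, limma-trend adjusted *P* = 0.891). With a fixed block for mouse pool the log2 fold change against non-met was 0.03 ± 0.30 (SE, voomLmFit adjusted *P* = 1). The call against non-met was also lost without non-met 2 or met 3 (log2 fold change 0.65), and that against control without control 1.

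*Rasip1*, a Rap1 effector needed for vessel lumens, was at 789, 958 and 744 CPM in met, at 486 to 1028 CPM in non-met and at 489 and 693 CPM in control, so that the non-met range held all met libraries. Against control the weighted log2 fold change was 0.68 ± 0.12 (SE, voomLmFit adjusted *P* = 0.00267). The unweighted one was 0.50 ± 0.42 (SE, limma-trend adjusted *P* = 1), and the call was lost without met 2, met 3 or control 1, without which the weighted value was 0.23. *Kdr*, encoding VEGF receptor 2, passed as lower in met against control by the weighted fit, with a log2 fold change of -0.48 ± 0.06 (SE, voomLmFit adjusted *P* = 2.14e-05). The libraries do not show this. *Kdr* was at 1639, 1865 and 1445 CPM in met, between the controls at 2076 and 1161 CPM, with non-met at 710.0 to 1852 CPM, and the unweighted difference was 0.08 ± 0.35 (SE, limma-trend adjusted *P* = 1). Without control 1 the weighted value was 0.38, and the call was also lost without non-met 5 or met 3. Of the regulators the GTPases *Rac1* and *Rhoa* were the most abundant per length, and neither passed in any comparison.

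**Figure D5:**
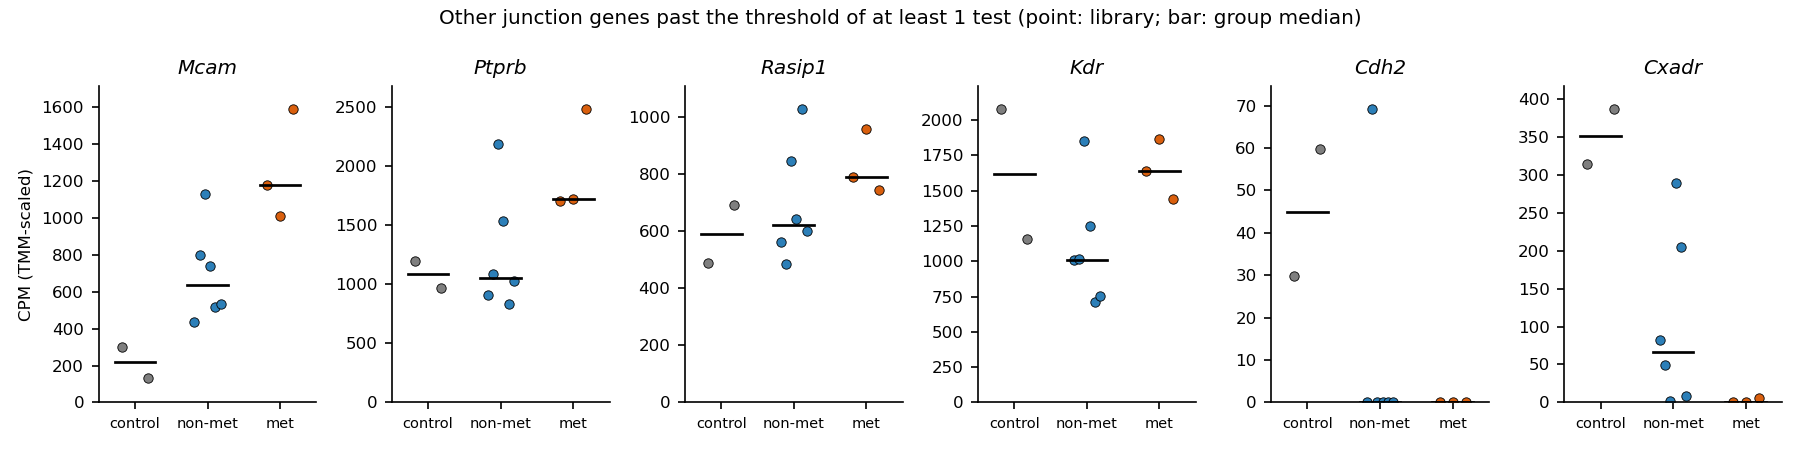
CPM of 6 other junction genes that passed in at least 1 comparison, *Cxadr* by other tools than the weighted fit and the rest by it, 1 point for each library and a bar at the group median, with axes starting at 0. *Mcam* rises from control (134 and 303 CPM) to met (1011 to 1588 CPM), *Kdr* in met lies between the 2 controls, *Cdh2* is at 0 in all but non-met 2 of the libraries from tumour-burdened mice, and *Cxadr* is at 0.881 to 6.42 CPM in met.

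The sort markers give the scale of these differences in cells chosen by the proteins themselves. *Pecam1* was at 2297, 2595 and 3163 CPM in met, at 1131 to 2427 CPM in non-met with a median of 1703 CPM, and at 1247 and 972 CPM in control. Its log2 fold change was 0.89 ± 0.13 (SE, voomLmFit adjusted *P* = 0.000441) against non-met and 1.34 ± 0.01 (SE, voomLmFit adjusted *P* = 7.72e-27) against control, with unweighted values of 0.69 ± 0.22 (SE, limma-trend adjusted *P* = 0.911) and 1.27 ± 0.29 (SE, limma-trend adjusted *P* = 0.0984). Neither passed by edgeR's quasi-likelihood test (adjusted *P* = 0.564 and 0.427) or DESeq2 (adjusted *P* = 0.592 and 0.0542). For *Pecam1* in the weighted fit, met 3 carried 99.8% and control 1 carried 99.9% of the weight of their groups. With a fixed block for mouse pool the value against non-met was 0.22 ± 0.20 (SE, voomLmFit adjusted *P* = 1), and the call against control was lost without control 1. *Emcn* was at 674, 1215 and 1326 CPM in met, overlapping with both other groups. Against control its weighted log2 fold change was 0.91 ± 0.11 (SE, voomLmFit adjusted *P* = 1.65e-05) and its unweighted one 0.79 ± 0.48 (SE, limma-trend adjusted *P* = 1). It did not pass by the quasi-likelihood test (adjusted *P* = 0.905) or DESeq2 (adjusted *P* = 1), nor with weights without control 1 or without met 3, where the value was 0.62. Since the cells were gated on both proteins, these values depend on the gate.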

How the data were processed

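RNA from sorted CD31hi EMCNhi endothelial cells was amplified with SMART-Seq v4, and the authors aligned the reads (Rsubread, mm10) and summarised them over Entrez genes by featureCounts. The deposited values are raw counts, not normalised, and the 11 single-library tables equalled the series table. Whether strand was used is not given in the sources used here. Groups and mouse pools came from the labels.

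RefSeq (GRCm38.p6) named 25275 of 27179 rows and GENCODE 18. The 1886 unnamed, 36 ribosomal RNA and 1794 predicted-gene rows, 1.94% to 15.7% of a library's counts, were left out. filterByExpr (minimum count 10, total 15) kept 11948 genes, and counts were scaled by TMM. As in the study's methods, voomLmFit with sample weights (edgeR 4.0.16, limma 3.58.1) was fitted, here to all 11 libraries in 3 groups, with Benjamini-Hochberg adjusted *P* under 0.05 over all tested genes. Log2 CPM used a prior count of 2. Exact two-sided permutation tests of group means used 84, 10 and 28 splits. Alternatives included edgeR's quasi-likelihood test, DESeq2 1.42.0 and limma-trend. The scripts were tested on simulated data. CPM are TMM-scaled; RPKM divide them by the exon length deposited with the counts. Counts above 3 reads were taken as detected, and depth limits low genes most in non-met 4.

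Met and non-met libraries of a pool share animals by their labels, so pool is a true pairing; deviations from group means of such libraries correlated between -0.02 and 0.02 (Spearman, 11948 genes). Genes named are the 10 junction genes, up to 3 genes per comparison with the smallest adjusted *P* past the threshold and the 2 of highest RPKM in each other junction list, the sort markers, and the 5 genes most correlated with *Cdh5*; *Cxadr* was added later. The junction genes and the lists were chosen with earlier results of these data known.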

Additional observations from a re-analysis of the deposited data

Results flagged for a closer look

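In non-met 5, *Cldn5* was at 390 CPM, set apart from the other 5 non-met libraries by a gap of 0.6871 of the whole log2 CPM range of the group. In the same library *F11r* was at 154 CPM, with a gap of 0.7433 of the range. Both exceeded Dixon's critical value for 6 libraries, which chance passes in about 1 in 20 groups, and 9 genes were examined. Non-met 5 had the fewest genes with a read of all 11 libraries (7618, where the next had 8484) at a total of 1862141 reads, and *Cdh5* was at 1332 CPM there.

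*Ocln*, which no test covered, had 5 reads in non-met 3, where both controls had 0 reads. All libraries with an *Ocln* read were in the higher keratin set, which also held non-met 5, with 0 reads of *Ocln*. The relation of these reads to the keratins was not tested.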

How the results depend on the processing

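The fitted values of abundant genes depend on which libraries carry weight, and the floor of detection for low genes differs between libraries with depth. Of 341 values of single genes under other settings, 280 kept their direction and side of the threshold, as did 325 of 363 with 1 library left out. Another scaling moved the median over all genes from 0.08 to -0.09 (RLE) in met against non-met, and from -0.33 to -0.54 (library size) in non-met against control. The cause of the differences below was not tested.

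Over all genes, the calls were 51 in met against non-met, 143 in met against control and 76 in non-met against control. They were 16, 10 and 14 with edgeR's quasi-likelihood test, 324, 228 and 266 with DESeq2, 2, 9 and 8 with limma-trend, 79, 429 and 184 without the low-count filter, and 24, 55 and 33 with libraries of a pool and group summed. A term for the keratin sets, chosen after seeing the data, gave 9, 4 and 20; since all controls are in one set and all met libraries in the other, its met against control values rest on the split within non-met. Without sample weights they were 274 in met against control and 140 in non-met against control, and by library size scaling 160 in the latter. The share called higher changed widely, from 34 of 51 to 21 of 324 (DESeq2) and 3 of 16 (quasi-likelihood) in met against non-met, and from 22 of 76 to 262 of 266 (DESeq2) in non-met against control. Scaling alone changed it to 24 of 45 (RLE) in met against non-met, to 63 of 136 (library size) in met against control and to 22 of 160 (library size) in non-met against control. With the mouse pool as a fixed replicate block, 27 genes were called in met against non-met (9432 tested), 3 higher and 24 lower. As a random replicate block it gave 52, 143 and 94 and changed no call of the junction genes. Leaving out 1 library gave 16 (without met 3) to 87 (without control 1) calls in met against non-met, with 32 without non-met 5. It gave 36 (without met 3) to 293 (without control 2) in met against control, with 69 without control 1, 83 without non-met 5 and 91 without met 2. It gave 33 (without non-met 5) to 228 (without control 2) in non-met against control, with 42 without non-met 2 or non-met 6 and 44 without non-met 4.

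Of the junction genes, 1 was called in met against non-met, 1 in met against control and 0 in non-met against control. The counts were 0 in all 3 with the quasi-likelihood test, DESeq2, limma-trend, summed libraries and the keratin term, and 0 in met against non-met with the fixed replicate block. *Cdh5* and *Esam* made 2 in met against control without sample weights or without the filter, and library size scaling gave 0 there. *Cdh5* made 1 in non-met against control, as lower, without sample weights, with RLE or library size scaling and without the filter. With 1 library left out the counts were 0 to 1, 0 to 2 and 0 to 1. *Esam* joined *Cdh5* in met against control without control 2, non-met 2 or non-met 3 and stood alone without met 2, *Ctnnb1* stood alone there without met 3, and *Cdh5* was called lower in non-met against control without control 2, non-met 3 or met 3.

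Directions changed as follows (log2 fold change). In met against non-met *Cldn5* was -0.12 with DESeq2, -0.090 with RLE and -0.26 with the fixed replicate block (-0.020 to 0.11 with 1 library left out), *Esam* -0.031 with DESeq2 and -0.10 with the keratin term (-0.047 to 0.46), *Ctnnd1* 0.090 with the keratin term (-0.55 to 0.10) and *Emcn* -0.045 with the fixed replicate block. *Ctnnb1* was 0.30 with the quasi-likelihood test, 0.14 with DESeq2, 0.26 with limma-trend, 0.60 with the fixed replicate block and 0.19 with the keratin term (-0.66 to 0.45). In met against control *Ctnnb1* was 0.40, 0.33 and 0.32 with those 3 tests, 0.0020 with summed libraries and 0.54 with the keratin term (-0.47 to 0.66), and with that term *Cdh5* was -0.39 and *Ctnnd1* 0.58 (-0.20 to 0.24). In non-met against control *Cdh5* was 0.085, 0.18 and 0.11 with the quasi-likelihood test, DESeq2 and limma-trend (-0.53 to 0.36), *Jam3* 0.61 and 0.59 with the first pair, *Jam2* -0.15 with limma-trend and -0.029 with library size scaling (-0.32 to 0.49), *Esam* -0.019 with library size scaling, and *Tjp1* 0.10 with DESeq2, 0.12 with summed libraries and 0.12 with the keratin term (-0.32 to 0.31). With 1 library left out *Ctnnb1* ranged from -0.10 to 0.57 and *Ctnnd1* from -0.21 to 0.60 there.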
